A study of Mus musculus with 2 samples.

Results

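The Cap-Venous cells of the postnatal day (P) 15 mouse retina were 134 of the 438 P15 endothelial cells that carried one of the study's cluster names (30.6%, 95% Clopper-Pearson interval 26.3 to 35.1). Members were taken by the study's own published cluster name and by the barcode suffix of the P15 library, with no expression value used again in the choice. The names at hand covered P15 barcodes only up to position 539 of the 2141 in the deposited table, so Cap-Venous cells further down are not among the members. The other 304 named P15 cells were 85 Stalk, 68 Cap-Arterial, 46 Tip, 42 Capillary, 36 Primitive, 14 Proliferative, 11 Arterial and 2 Venous cells. The same name was held by 414 of 1560 named P6 cells.

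Both ages came from retinas of wild-type C57BL/6 mice with no other allele or agent. Cells were sorted as CD31+CD45-, which keeps endothelial cells and removes leukocytes, and were captured in droplets on the 10x Genomics platform. The study used these cells to place retinal endothelial states along the range from vein to artery. Each age was 1 library, the number of mice behind it is not given in the sources used here, and age and library cannot be told apart. No test between the ages or between clusters was therefore possible. The libraries also differed in sex-linked RNA. *Xist* was found in 16.4% of P6 and 5.97% of P15 Cap-Venous cells, and Y-linked RNA in 29.2% and 53.0%. A run on cells with Y-linked and no *Xist* RNA is given below for that reason. Levels are UMIs (unique molecular identifiers, 1 per captured RNA molecule) summed over cells and divided by the total, given as counts per 1000000 UMIs (CPM). All intervals are exact, at the 95% level, and cover counting error only.

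Retinal capillaries run from arterioles to venules, and the venous side of the bed is where new sprouts grow out and where leukocytes later cross. Endothelial cells of the retina form the inner blood-retina barrier. They seal their contacts with tight junctions, hold back vesicle transport, and carry glucose, lactate, amino acids and organic anions through dedicated membrane carriers. Norrin and Wnt signals through the receptor *Fzd4* and its partner *Tspan12* are known to induce this state in the first weeks after birth.

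The 134 P15 Cap-Venous cells held 763728 UMIs, with a median of 5180 UMIs and 2336 genes per cell, against a median of 3809 UMIs in the other named P15 cells and 5741 in P6 Cap-Venous cells. Mitochondrial RNA made up 0.944% of the UMIs of the median cell. All 10 pan-endothelial markers were detected, with a summed level of 17862.5 CPM against 16445.6 CPM in the other named P15 cells. Both lymphatic markers with a row were at 0 UMIs, which allows up to 3.93 CPM for each. RNA of other retinal cells was present at low levels. Mural markers summed to 179.6 CPM in P15 Cap-Venous cells, between 40.8 CPM in Arterial and 454.8 CPM in Capillary cells at the same age, and to 14.3 CPM in P6 Cap-Venous cells. Of those 11 markers 7 were detected, while *Cspg4*, *Myh11*, *Notch3* and *Tagln* were at 0. Rod photoreceptor markers summed to 86.5 CPM (9 of 10 detected), Müller glia and astrocyte markers to 877.1 CPM (5 of 6, *Slc1a3* at 0), microglial markers to 24.9 CPM (7 of 9, *Csf1r* and *P2ry12* at 0), erythroid markers to 152.1 CPM (4 of 5) and neuronal markers to 18.4 CPM (2 of 6). The matching sums in P6 Cap-Venous cells were 42.5, 250.7, 7.14, 20.7 and 4.13 CPM. Of rod genes, which endothelial cells do not make, *Pde6g* was found in 9 of the 134 P15 Cap-Venous cells and 25 of the other 304 named P15 cells, and *Sag* in 6 and 22. These figures give the level at which RNA from outside a cell was counted at P15.

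The name was checked on its 3 markers, the glutamine carrier *Slc38a5*, the lipoprotein *Apoe* and the organic anion carrier *Slco1a4*. All 3 were detected together in 102 of the 134 cells (76.1%), 28 cells held 2 of them, 4 held 1 and none held 0. The same share was 39.5% in the other named P15 cells and 8.45% in P6 Cap-Venous cells. Against the other named P15 cells, *Slc38a5* was 1.86-fold higher (1.68 to 2.06), *Apoe* 1.71-fold (1.53 to 1.91) and *Slco1a4* 1.42-fold (1.30 to 1.55). Because clusters were formed from these genes, this describes the name and tests nothing.

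**Figure D1:**
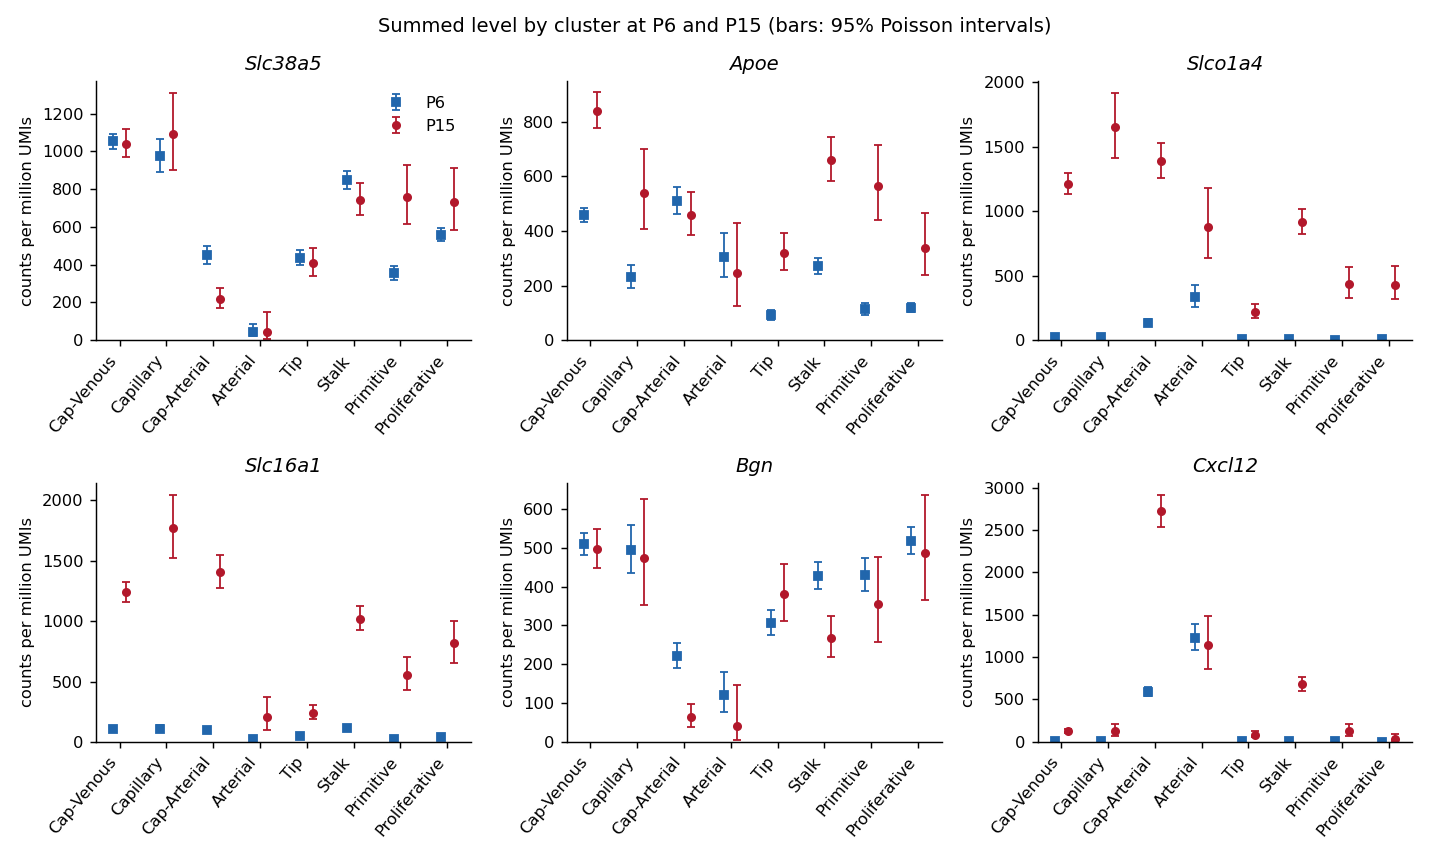
Level of 6 genes in each named cluster (x axis), in CPM (y axis), at P6 (squares) and P15 (circles), with exact 95% Poisson intervals as bars. The Venous cluster, with 2 cells at P15, is left out. Of the clusters drawn, at P15 *Apoe* was highest in the Cap-Venous cluster, while *Slc38a5*, *Slco1a4* and *Slc16a1* reached their highest level in Capillary cells.

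No marker was held by Cap-Venous cells alone at P15, and the plot of levels by cluster gives their order. *Slc38a5* stood at 1042 CPM (971.1 to 1117) in Cap-Venous and at 1090 CPM (899.6 to 1308) in Capillary cells, so these neighbours did not differ beyond counting error. The order then ran down through Primitive (759.8 CPM), Stalk (744.7), Proliferative (733.8), Tip (408.7) and Cap-Arterial cells (218.2) to 40.8 CPM in Arterial cells. *Apoe* peaked among these in the Cap-Venous cluster, with 840.4 CPM (776.6 to 908.1), followed by Stalk cells at 661.1 CPM (583.4 to 746.4), with no overlap of the intervals. The 2 Venous cells, outside this order, held 9 *Apoe* UMIs or 1344 CPM (614.8 to 2552). *Slco1a4* ordered the clusters differently, since Capillary (1649 CPM) and Cap-Arterial cells (1386 CPM, 1256 to 1525) lay above or beside Cap-Venous cells (1213 CPM, 1136 to 1294), and Tip cells were lowest at 221.9 CPM. Of the 3 markers, *Slc38a5* therefore set Cap-Venous apart from the arterial side, and *Slco1a4* set the capillary clusters apart from Tip cells.

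The promoters of *Apoe*, *Slco1a4* and *Slc16a1* are shown because *Apoe* and *Slco1a4* mark the cluster and *Slco1a4* and the lactate carrier *Slc16a1* are among the 10 largest ratios to P6. Each line gives the 250 bases before the start of the gene, 5′ to 3′ on the strand of the gene, from RefSeq on GRCm38.p6. The motifs CTTTGA (TCF/LEF factors), CCGGAA (ETS factors) and AGAACA (glucocorticoid receptor) were searched on both strands, and any match is in capitals.
Apoe, chr7:19699189-19699438, minus strand: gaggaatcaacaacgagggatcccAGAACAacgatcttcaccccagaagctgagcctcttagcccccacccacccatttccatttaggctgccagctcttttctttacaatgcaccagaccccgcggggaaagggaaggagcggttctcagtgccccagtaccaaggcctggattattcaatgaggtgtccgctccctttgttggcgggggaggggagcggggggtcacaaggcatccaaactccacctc
Slco1a4, chr6:141856221-141856470, minus strand: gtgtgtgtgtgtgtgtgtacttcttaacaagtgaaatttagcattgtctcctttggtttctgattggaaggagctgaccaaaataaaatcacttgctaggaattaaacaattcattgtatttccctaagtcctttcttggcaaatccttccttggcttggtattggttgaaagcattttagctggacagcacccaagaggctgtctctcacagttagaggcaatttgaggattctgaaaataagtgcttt
Slc16a1, chr3:104638414-104638663, plus strand: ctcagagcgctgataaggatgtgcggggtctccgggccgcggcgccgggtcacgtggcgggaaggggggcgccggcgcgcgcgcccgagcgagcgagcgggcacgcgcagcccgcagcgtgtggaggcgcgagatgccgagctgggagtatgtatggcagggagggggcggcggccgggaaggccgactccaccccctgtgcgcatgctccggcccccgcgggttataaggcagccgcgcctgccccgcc

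The 3 windows differ in base composition, with 39.2% G and C for *Slco1a4*, 57.2% for *Apoe* and 76.4% for *Slc16a1*. *Apoe* held AGAACA once, 226 bases before the start, a motif found in 16.1% of all 32851 promoters of the same length. *Slco1a4* and *Slc16a1* held none of the motifs, and CTTTGA and CCGGAA occurred in 13.8% and 12.03% of all promoters. A match, or its absence, describes the letters of these windows only.

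Within the cluster the cells varied widely. In UMIs per 10000 UMIs of a cell, *Slc38a5* ran from 0 through a median of 9.56 to 43.1, *Apoe* from 0 through 5.02 to 48.5, and *Slco1a4* from 0 through 11.4 to 37.4. *Apoe* was the most uneven of them, with quartiles at 1.599 and 11.1. *Bsg*, the basigin chaperone of the lactate carriers, was present in every cell, from 59.3 to 490.0 with a median of 253.8.

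The first comparison asked which genes set P15 Cap-Venous cells apart from all other named P15 cells. With at least 100 UMIs required over both groups, 3693 genes were counted, of which 66 were at least 1.5-fold higher in Cap-Venous cells (1.79% of genes) and 155 at least 1.5-fold lower (4.2%). The median ratio was 1.006, and 90% of genes lay between 0.690 and 1.352.

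Among genes of venous annotation 4 of the 10 counted were past 1.5-fold higher and none lower, with a median of 1.12. The other 6 lay within 1.5-fold. *Nrp2* had a ratio of 0.920 (0.641 to 1.31) and *Ephb4* of 0.944 (0.640 to 1.38), both genes the study used to name the cluster. *Emcn* stood at 0.990, *Ctla2a* at 0.989, *Tmsb10* at 1.04 and *Aplnr* at 1.20. These lists overlap with the genes used to name the clusters. *Nr2f2*, the COUP-TFII factor that holds venous identity, stood at 95.7 CPM (75.02 to 120.3) against 57.5 CPM, a ratio of 1.67 (1.20 to 2.32), although 7 UMIs put the 11 Arterial cells at 142.8 CPM (57.4 to 294.3). Biglycan, the matrix proteoglycan encoded by *Bgn*, was 1.77-fold higher, at 496.9 CPM (448.1 to 549.5) beside 486.1 CPM in Proliferative and 473.7 CPM in Capillary cells, within counting error of each other. Arterial genes lay on the other side, with 5 of 10 counted past 1.5-fold lower, none higher and a median of 0.716. *Gja4*, a gap junction protein of arteries, stood at 21.0 CPM against 203.6 CPM (ratio 0.103, 0.0581 to 0.170), and the chemokine *Cxcl12* at 125.9 CPM against 2718 CPM in Cap-Arterial cells. *Hey1*, a Notch target, had a ratio of 0.3005 (0.180 to 0.479).

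Of 11 angiogenic and tip cell genes counted, 5 were past 1.5-fold lower and none higher, with a median of 0.696. The guidance receptor *Unc5b* stood at 17.0 CPM against 78.5 CPM (ratio 0.217, 0.112 to 0.387), and *Adm*, the peptide adrenomedullin, at 325.2 CPM against 503.3 CPM (0.646). Against Capillary and Cap-Arterial cells alone the *Adm* ratio turned to 1.56 and that of *Trp53i11*, a p53-inducible gene, to 2.44. The chemokine receptor *Cxcr4*, too rare to be counted, had 2 UMIs in the 134 cells against 43 in the other 304 (ratio 0.0839, 0.00984 to 0.322). Basement membrane genes followed, with 3 of 9 counted past 1.5-fold lower and a median of 0.711, among them *Col18a1* at 0.537 (0.329 to 0.847).

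P15 Cap-Venous cells carried little RNA of dividing cells. Of 20 cell division genes 5 were counted, 3 of them past 1.5-fold lower and none higher (median 0.583). *Mki67*, which marks cycling cells, had no UMI here and 13 in the other named P15 cells. With 0 taken as 3 counts it was 2.40-fold lower, and *Ccnb2*, a mitotic cyclin also at 0, was 6.84-fold lower. These 2 folds leave out counting error of the reference. The reference holds the Proliferative cells, which the study named in part by high *Mki67*. Lower division RNA in Cap-Venous cells therefore describes the cluster names and tests nothing. *Hmgb2*, a chromatin protein, had a ratio of 0.583, which turned to 1.28 once Proliferative and Primitive cells were taken out of the reference. The median ratio of 0.886 over 6 G1 cyclins and CDK inhibitors held 2 genes past 1.5-fold lower and none higher.

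Few barrier genes were past 1.5-fold between Cap-Venous cells and the pooled other named P15 cells, although single clusters among the latter differed widely. Of 21 amino acid, other solute and ABC carriers counted, *Slc38a5* alone was past 1.5-fold, and the list median was 1.17 against 1.006 for all genes. *Slc16a1*, the lactate carrier MCT1, was 1.35-fold higher, *Slc7a1*, the arginine and lysine carrier, 1.30-fold and *Abcb1a*, the efflux pump P-glycoprotein, 1.26-fold (1.04 to 1.52). *Slc6a6*, the taurine carrier, went the other way at 0.682. Of 11 junction genes counted, only the cingulin relative *Cgnl1* was past 1.5-fold, at 166.5 CPM against 104.7 CPM (1.59, 1.24 to 2.03). That ratio was 1.03 with predicted names of further P15 cells added and 0.871 in the predicted cells alone. The transferrin receptor *Tfrc*, through which iron enters the brain and retina, stood at 241.2 CPM, above Cap-Arterial (165.3 CPM) and below Capillary cells (397.9 CPM), and was 1.68-fold above the other named P15 cells together. Among 12 Norrin and Wnt genes counted (median 1.04), the feedback target *Nkd1* was past 1.5-fold higher at 1.53 (1.09 to 2.14).

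The 10 largest ratios were those of *Mgarp* (2.43), *Rlbp1* (2.30), *Prelid3b* (2.02), *Gm43019* (2.0), *Ctsf* (1.94), *Bcam* (1.91), *Carhsp1* (1.88), *Slc38a5*, *Car2* (1.85) and *Gatm* (1.82). *Bcam*, a laminin-binding adhesion protein, stood at 162.6 CPM (135.2 to 193.8) in Cap-Venous cells, above every other cluster of 10 or more cells, of which Cap-Arterial came next at 125.7 CPM (88.9 to 172.5). *Rlbp1*, the retinaldehyde-binding protein, marks Müller glia. Its 69 UMIs lay in 32 Cap-Venous cells, and without the 3 cells that held most of each gene the ratios were 1.56 for *Rlbp1* (1.03 to 2.36), 1.71 for *Mgarp* and 1.34 for *Car2* (0.949 to 1.89). The same 2 cells were among the 3 highest for all these genes. Of the 669 UMIs of Müller glia and astrocyte markers in Cap-Venous cells, 596 were *Glul*, glutamine synthetase, which at P15 was highest in Arterial (3448 CPM) and Cap-Arterial cells (2811 CPM). Without *Glul* these markers summed to 73 UMIs or 95.7 CPM (75.02 to 120.3) in Cap-Venous cells and to 60 UMIs or 43.6 CPM (33.3 to 56.2) in the other named P15 cells, and *Rlbp1* made up 69 and 54 of them. How far RNA of glia enters the 3 ratios was not tested. The 10 smallest ratios were those of *Gja4*, *Nebl* (0.133), *Cxcl12* (0.144), *Unc5b*, *Mgll* (0.225), *Slc39a1* (0.247), *Rn7sk* (0.262), *Hey1*, *Cit* (0.322) and *Ptprr* (0.365). *Rn7sk* rested on 1 Capillary cell that held 309 of the 406 UMIs of the reference, and without that cell the ratio was 1.095.

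The second comparison set P15 Cap-Venous cells beside P6 cells of the same name and asked which barrier and maturation genes differed. Of 4895 genes counted, 786 were at least 1.5-fold higher at P15 (16.1%) and 560 at least 1.5-fold lower (11.4%), with a median ratio of 1.066. Higher calls were thus 58.4% of all calls. That split depended on scaling, because 73 of 82 ribosomal protein genes were past 1.5-fold lower at P15 and their sum went from 205315.9 to 115416.8 CPM. With mitochondrial, ribosomal protein and haemoglobin genes left out of the totals, 497 genes were higher and 810 lower (38.0% of calls higher), and the median log2 ratio moved from 0.09 to -0.07. With the median ratio set to 1 the calls were 593 and 691 (46.2% higher). Ratios and list medians below are those of the first scaling, to be read against the median of 1.066 over all genes.

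**Figure D2:**
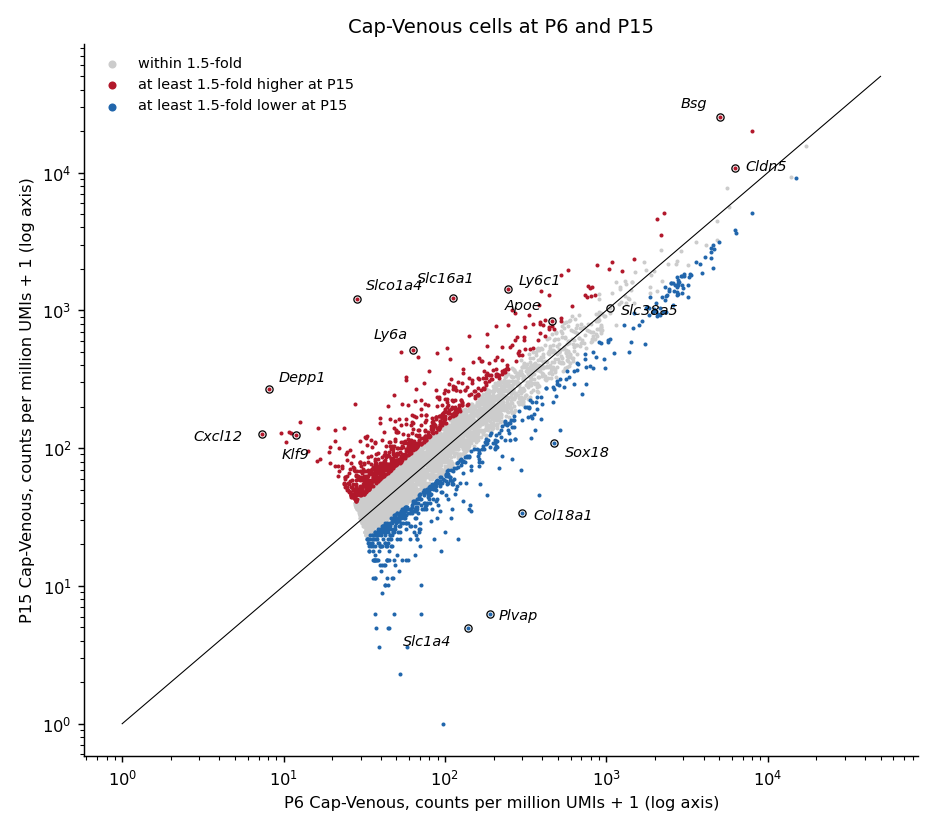
Level of each gene in P6 (x axis) and P15 (y axis) Cap-Venous cells, as CPM + 1 on log axes, for genes with at least 100 UMIs over both. *Slco1a4*, *Slc16a1* and *Bsg* lie above the line of equal level, and *Plvap*, *Slc1a4* and *Sox18* lie below it.

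Carriers of organic anions, lactate, taurine and glucose stood higher at P15. Of 11 counted genes of the glucose, monocarboxylate, organic anion and vitamin list, 8 were past 1.5-fold higher and none lower, with a median of 1.97. *Slco1a4*, which moves bile acids, steroid conjugates and thyroid hormone, went from 27.4 CPM at P6 to 1213 CPM at P15, a 44.2-fold difference (34.8 to 56.9) and the largest of any gene ranked. In the other named cells it was 23.9-fold higher (20.8 to 27.5), so the difference was not held by Cap-Venous cells alone. *Slc16a1* went from 110.5 to 1239 CPM (11.2-fold, 9.83 to 12.8), and its chaperone *Bsg* from 5061 to 25253 CPM (4.99-fold, 4.88 to 5.10). In the other named cells these genes were 14-fold and 5.81-fold higher. *Slc2a1*, the glucose carrier GLUT1 of barrier vessels, went from 1036 to 2010 CPM (1.94-fold, 1.82 to 2.07). *Slc6a6* went from 102.6 to 531.0 CPM (5.17-fold). *Slco1c1*, a thyroxine carrier, and *Slc22a8*, the organic anion carrier OAT3, were 2.74-fold and 2.29-fold higher.

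The ages also lay far apart at equal depth per cell. With each cell thinned to 3000 UMIs, which left out 16 of the 134 P15 cells, a UMI of *Slco1a4* was found in 92.4% of 118 P15 cells and 7.22% of 388 P6 cells (97.8% and 11.8% unthinned). For *Slc16a1* the thinned shares were 80.5% and 22.7%. The median P15 Cap-Venous cell had 11.4 *Slco1a4* UMIs per 10000, against 0 at P6, where the highest cell had 13.9. The middle of the P15 cells was thus close to the top of the P6 cells, as seen in the plot of single cells.

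**Figure D3:**
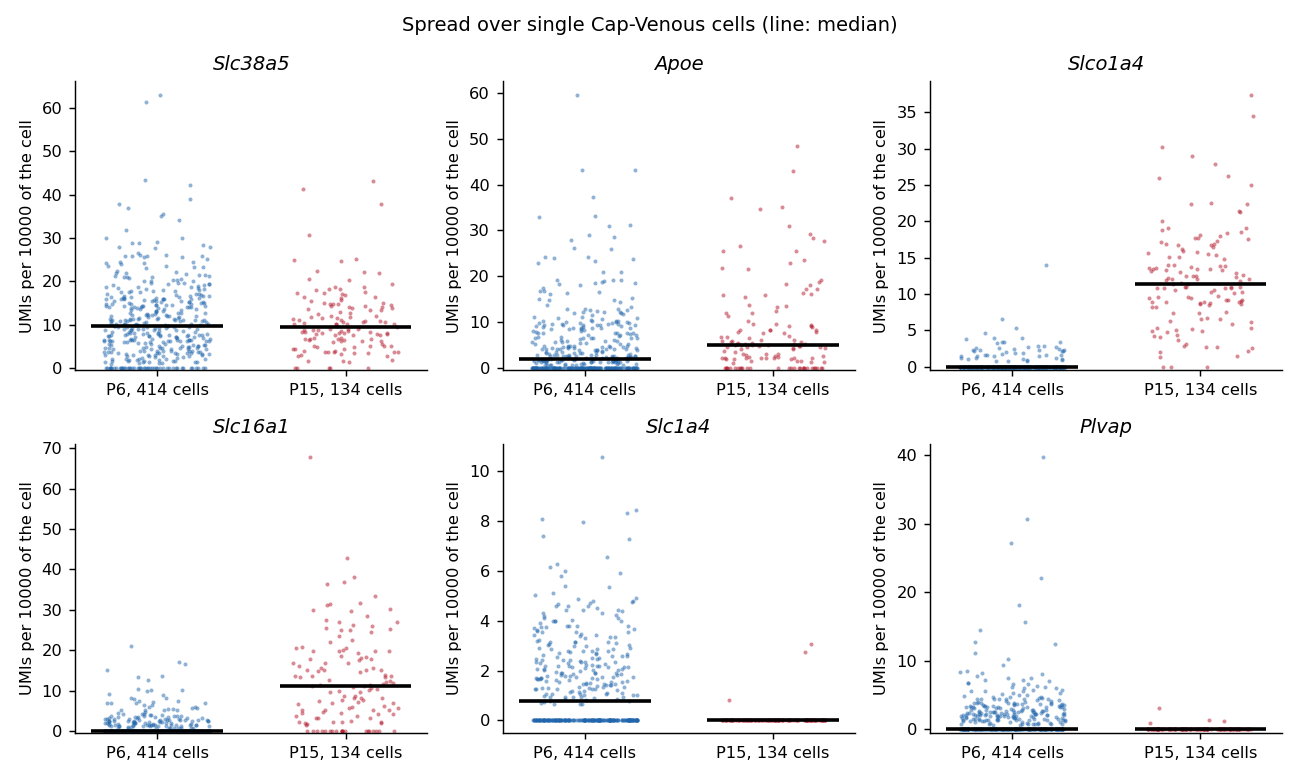
UMIs per 10000 UMIs in each Cap-Venous cell at P6 and P15, 1 point per cell, with the median as a line. *Slc38a5* has close medians at both ages (9.61 and 9.56), while *Slco1a4* moves from a median of 0 to 11.4.

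Amino acid carriers did not share the direction of the other carriers. Of 9 counted, 1 was past 1.5-fold higher and 3 lower, with a median of 0.982. The higher one was the taurine carrier *Slc6a6* given above, which belongs to this list. *Slc38a5* did not differ between the ages beyond counting error at the first scaling, with 1042 CPM at P15 and a ratio of 0.990 (0.914 to 1.071). With cells thinned to 3000 UMIs, its UMIs were found in 89.0% of P15 and 82.7% of P6 cells. *Slc1a4*, the neutral amino acid exchanger ASCT1, was the clearest on the low side, with 3 UMIs at P15 against 365 at P6, or 3.93 against 137.2 CPM (ratio 0.0287, 0.00588 to 0.0844). *Slc1a5*, the related exchanger ASCT2, had 3 UMIs against 97 (0.108, 0.0219 to 0.325), and *Slc38a2*, a glutamine carrier, a ratio of 0.516. In the other named cells *Slc1a4* was lower as well, with a ratio of 0.174. The large amino acid carrier *Slc7a5* stood 1.33-fold higher and its partner chain *Slc3a2* at 0.982. Of 5 ABC pumps counted, 2 were past 1.5-fold higher and none lower. *Abcb1a* went from 97.7 to 251.7 CPM (2.58-fold, 2.13 to 3.12), and *Abcg2*, the other main efflux pump of barrier vessels, was 1.14-fold higher. Over all 25 carriers of the 3 lists the median was 1.33, with 11 past 1.5-fold higher and 3 lower. Among all genes counted, 16.1% were past 1.5-fold higher and 11.4% lower. In the other named cells 26 carriers were counted, with a median of 1.485, 13 past 1.5-fold higher and 3 lower. The difference in carriers was thus not particular to Cap-Venous cells.

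**Figure D4:**
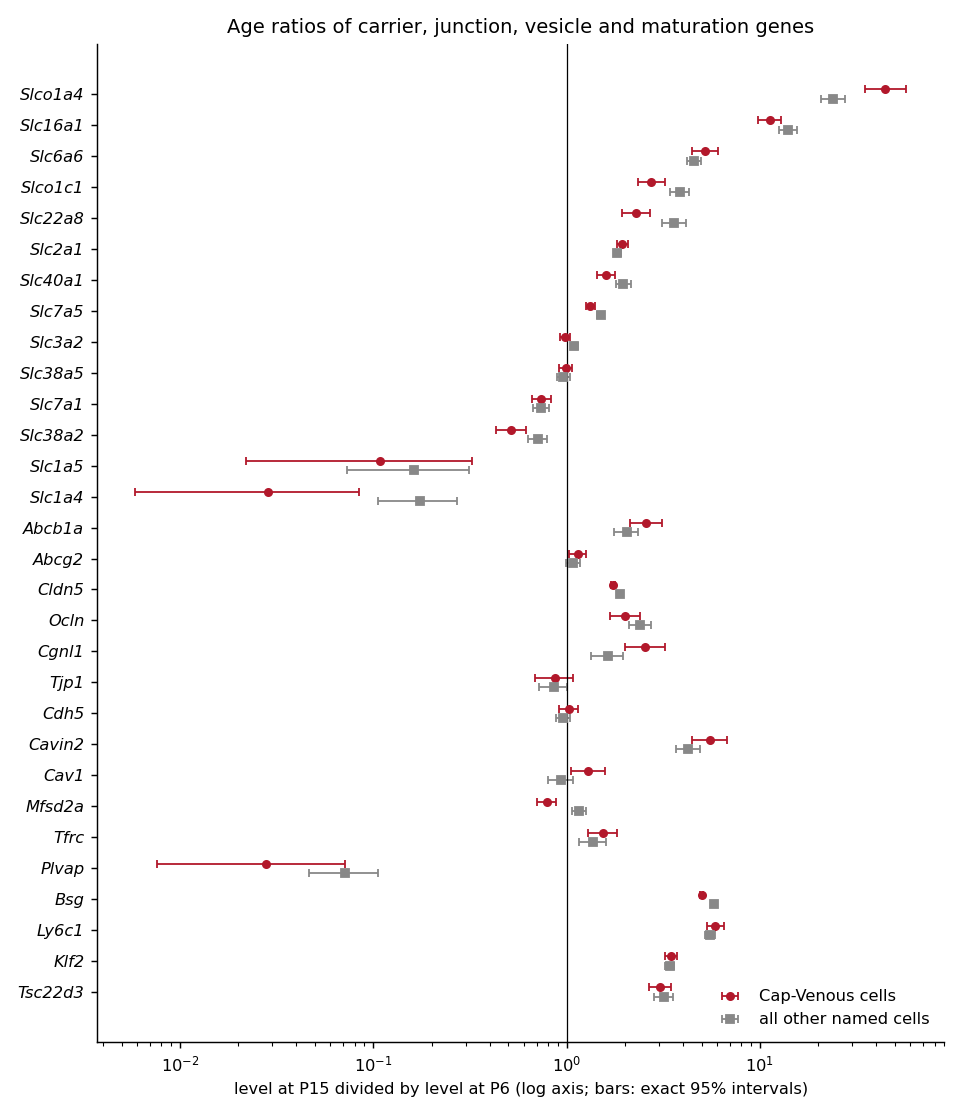
Ratio of P15 to P6 level on a log axis for barrier and maturation genes, in Cap-Venous cells and in the other named cells, with exact 95% intervals. *Slco1a4* and *Slc16a1* lie furthest right, *Plvap* and *Slc1a4* furthest left, and *Mfsd2a* falls on opposite sides of 1 in the 2 groups of cells.

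Of 12 junction genes counted, 4 were past 1.5-fold higher and none lower (median 1.35). *Cldn5*, the main claudin of barrier endothelium, went from 6250 to 10885 CPM (1.74-fold, 1.70 to 1.79), and *Ocln*, occludin, from 131.2 to 263.5 CPM (2.01-fold). *Cgnl1* was 2.55-fold higher in Cap-Venous (2.01 to 3.22) and 1.63-fold in the other named cells. VE-cadherin (*Cdh5*, 1.03) and the scaffold *Tjp1* (0.866) stayed within 1.5-fold. Of 11 genes of caveolae, transcytosis and the diaphragm, 3 were past 1.5-fold higher and 1 lower (median 1.29). *Plvap*, the protein of fenestral and vesicle diaphragms that barrier vessels lose as they mature, was the low one, with 4 UMIs at P15 against 501 at P6, or 5.24 against 188.3 CPM (35.9-fold lower, ratio interval 0.00756 to 0.0717). A *Plvap* UMI was found in 4 of the 134 P15 Cap-Venous cells (2.99%), fewer than the 6 with *Sag* and the 9 with *Pde6g*, so its P15 level cannot be told from background, and the same holds for *Slc1a4* with 3 cells (2.24%). The vesicle coat genes *Cavin2* and *Cav2* were 5.50-fold and 2.28-fold higher, against 1.29-fold for *Cav1*. *Mfsd2a*, the lipid carrier that restrains transcytosis, was lower at P15 in Cap-Venous cells, 470.7 against 596.6 CPM (0.789, 0.702 to 0.885), and higher in the other named cells (1.16, 1.068 to 1.26). These intervals do not overlap, but with 1 library per age the difference was not tested. The make-up of the other named cells also differed between the ages. They held 198 Proliferative and 155 Primitive of 1146 cells at P6, and 14 and 36 of 304 at P15. Their median ratio over all genes counted was 1.071, near the 1.16 of *Mfsd2a*.

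Of 17 counted genes of endothelial maturation and of the glucocorticoid response, 15 were past 1.5-fold higher and none lower, and the median of 3.19 compares with 1.066 for all genes. *Klf2*, a flow-responsive factor, went from 521.4 to 1809 CPM (3.47-fold, 3.22 to 3.74). *Klf9*, a hormone-responsive factor, went from 10.9 to 123.2 CPM (11.3-fold), *Tsc22d3*, the glucocorticoid target GILZ, from 180.4 to 550.7 CPM (3.05-fold), and *Ly6c1*, a surface protein of mature endothelium, from 244.0 to 1433 CPM (5.87-fold). The other named cells had a list median of 3.17, near that of Cap-Venous cells. All 11 immediate early genes counted were past 1.5-fold higher (median 3.78), with *Fos* 4.61-fold, *Jun* 4.67-fold and *Dusp1* 5.57-fold higher, and with 12 of 13 past 1.5-fold in the other named cells. Between the ages those other cells had 18% of all genes counted past 1.5-fold higher and 13.7% lower.

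Norrin and Wnt genes leaned the same way, with 7 of 15 counted past 1.5-fold higher, 1 lower and a median of 1.35. The other named cells had 10 of 17 counted past 1.5-fold higher, 1 lower and a median of 1.55. In Cap-Venous cells the receptor *Fzd4* was at 59.0 against 38.3 CPM (1.54-fold, 1.06 to 2.21), *Tspan12* 1.53-fold and the target *Nkd1* 1.90-fold higher. *Foxq1*, a forkhead factor of barrier endothelium, was 1.67-fold higher. *Sox17* and *Sox18*, which act with this pathway in vessels, parted, with *Sox17* 2.13-fold higher and *Sox18* at 108.8 against 472.1 CPM (4.34-fold lower). In the other named cells *Sox18* had a ratio of 0.265, near the 0.231 of Cap-Venous cells.

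**Figure D5:**
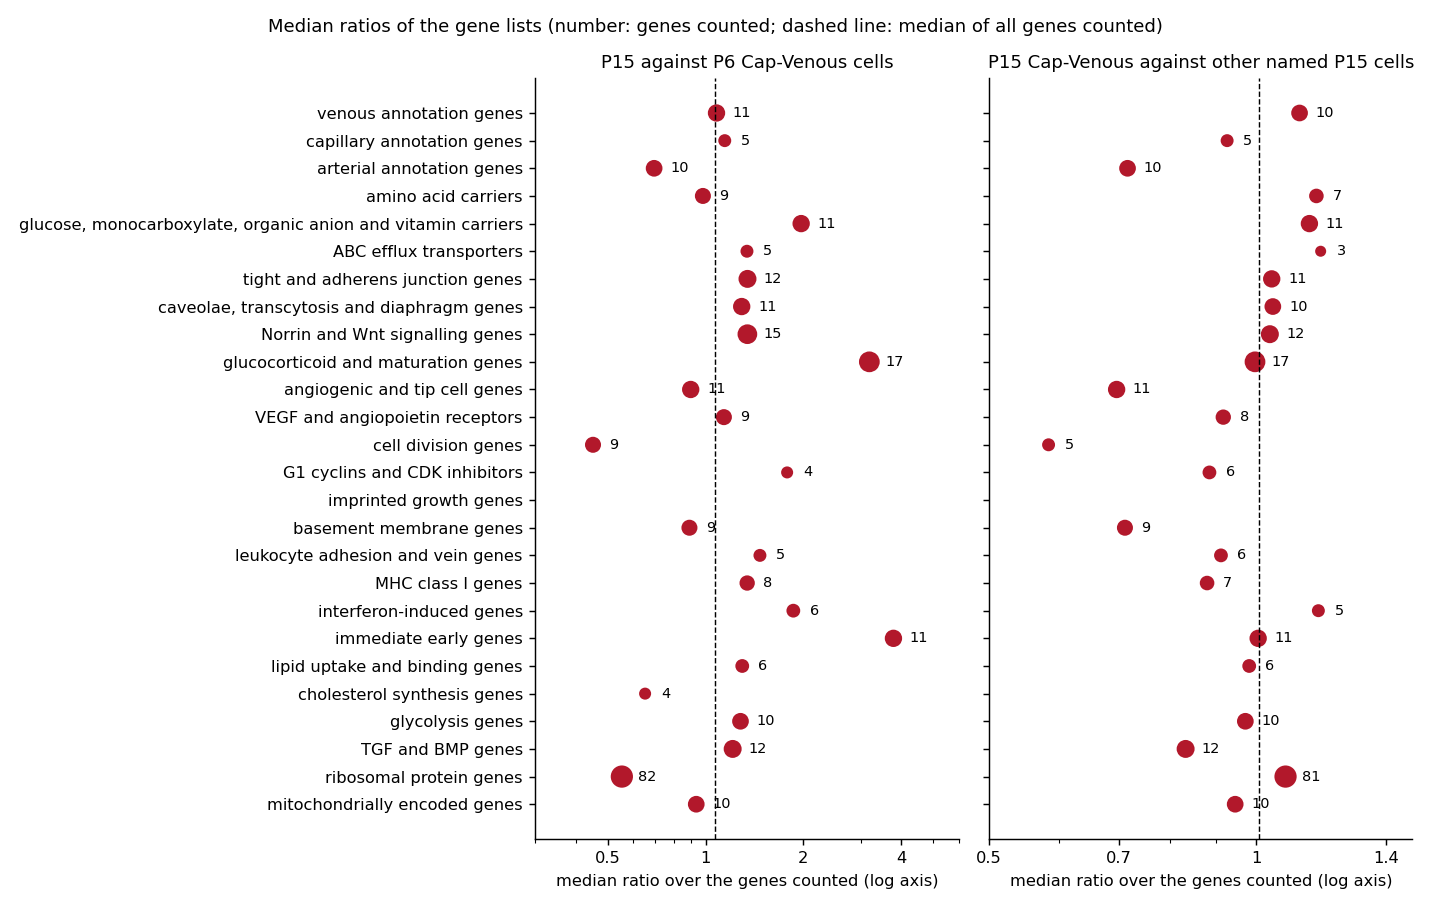
Median ratio of each gene list on a log axis, P15 against P6 Cap-Venous cells on the left and P15 Cap-Venous against other named P15 cells on the right, with the number of genes counted beside each point and a dashed line at the median of all genes counted. Lists with fewer than 3 genes counted are not drawn. Maturation (3.19) and immediate early genes (3.78) lie furthest right between the ages but near 1 between clusters of P15.

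Cell division genes were lower at P15. Of 9 cell division genes counted, 8 were past 1.5-fold lower and none higher (median 0.451). *Mki67* had 0 UMIs at P15 and 22 at P6, 2.10-fold lower with 0 taken as 3 counts and counting error at P6 left out. *Pclaf*, a partner of PCNA, had 1 against 138 (ratio 0.0253, 0.000635 to 0.143). The cyclin *Ccnd2* and the CDK inhibitor *Cdkn1a* were 3.43-fold and 2.81-fold higher. Of 11 angiogenic and tip cell genes counted, 5 were past 1.5-fold lower and 1 higher (median 0.901), with the adhesion protein *Mcam* at 0.473 and *Adm* 5.81-fold higher. *Cxcr4*, below the minimum for counting, had 2 UMIs at P15 and 69 at P6 (ratio 0.101, 0.0120 to 0.379). *Col18a1*, a vessel collagen, went from 300.4 to 32.8 CPM (9.16-fold lower), while the list of basement membrane genes had a median of 0.893 with 1 of 9 past 1.5-fold. *Col15a1*, its relative, had 2 UMIs at P15 against 153 at P6 (ratio 0.0456, 0.00547 to 0.168).

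Venous identity genes differed little between the ages, with 2 of 11 counted past 1.5-fold higher, 1 lower and a median of 1.08, which turned to 0.967 when mitochondrial, ribosomal protein and haemoglobin genes were left out of the totals. *Nr2f2* stood at 95.7 against 80.5 CPM (1.19, 0.899 to 1.56), within counting error. *Apoe* was 1.83-fold higher, 840.4 against 459.7 CPM, and 2.32-fold higher in the other named cells. Arterial genes had a median of 0.695, with 3 of 10 past 1.5-fold higher and 4 lower. *Gja4* was lower (0.349) and *Hey1* higher (1.98), so members of the list lay on both sides.

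Beside *Slco1a4*, *Slc16a1* and *Klf9*, the largest ratios between the ages were those of *Depp1*, a FOXO target (7.14 to 266.2 CPM, 37.3-fold), *Cxcl12* (19.7-fold), *Ltbp4*, a binding protein of latent TGF-β (14.9-fold), the hormone precursor *Pomc* (13.4-fold), the adhesion adaptor *Lims2* (13.3-fold), *Rgs5* (12.5-fold) and the p53 target *Pmaip1* (11.7-fold). *Rgs5* is also the leading mural marker. It was found in 23.1% of P15 Cap-Venous cells, 26.6% of the other named P15 cells and 2.90% of P6 Cap-Venous cells, and its ratio was 50.2 among cells that pass the study's exclusion criteria. *Depp1*, *Ltbp4* and *Cxcl12* had smaller ratios in the other named cells (12.02, 4.91 and 7.84). Their ratios in Cap-Venous cells rest on 19, 23 and 17 UMIs at P6. At P15 all these genes were lower in Cap-Venous than in the other named cells (ratios 0.702, 0.746 and 0.144). On the low side *Gm16200* had 257 UMIs at P6 and none at P15 (ratio interval 0 to 0.0504). After it came *Pclaf*, *Plvap*, *Slc1a4*, *Col15a1*, *Rpsa-ps2* (0.0691), *Cd74* (0.0750), *Rpph1* (0.0894), *Slc1a5* and *Col18a1*. *Rpsa-ps2* is a pseudogene that shares sequence with its parent gene, so its level is uncertain. The 186 *Cd74* UMIs at P6 lay in 28 of 414 cells. *Cd74* is an antigen presentation gene of immune cells, and microglial markers summed to 7.14 CPM in the same P6 cells.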

How the data were processed

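The authors deposited 1 table of UMI counts per age, unnormalised, with genes in rows and cells in columns. The submitters' processing notes name Seurat 3.0 and mm10, while the counter and its annotation are not given in the sources used here. Cluster names came from the study's published cell assignments. The members and gene lists were chosen with earlier results of these data known. Counts were summed over the cells of a group and divided by the total over the 19813 gene symbols with a row in both libraries. A gene without a row was not taken as 0. Levels have exact Poisson intervals, shares have Clopper-Pearson ones and ratios exact conditional binomial ones. A count of 0 was bounded by 3 counts, and folds set by that bound leave out counting error of the reference. A gene was counted with at least 100 UMIs over both groups and called at 1.5-fold. Named genes were list members and the 10 largest and 10 smallest ratios among counted genes found in at least 20 cells. All named cells were used. No doublet caller was run: 2 of the 134 cells held both Xist and Y-linked UMIs, and leaving such cells out was an alternative. The 2 libraries shared 7 barcodes, none of them a named cell. Names of other P15 cells were predicted from nearest neighbours, which returned the right name for 124 of the 134 members in cross-validation. Over all 438 named P15 cells the right name was returned for 356 (81.3%). How many cells of other clusters were predicted to be Cap-Venous was not counted. Scripts were tested on simulated data (Python 3.11.15, numpy 2.4.6, scipy 1.17.1, pandas 2.3.3, scikit-learn 1.9.0).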

Additional observations from a re-analysis of the deposited data

Results flagged for a closer look

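*Rn7sk*, the 7SK RNA that restrains transcription elongation, lay on opposite sides of 1 at the 2 ages. At P15 the ratio of Cap-Venous to other named cells was 0.262 (0.196 to 0.345), and at P6 it was 1.78 (1.53 to 2.06). At P15 1 Capillary cell of 1588 UMIs held 309 of the 406 *Rn7sk* UMIs of the reference, and without it the ratio was 1.095. The difference between the ages was not tested, since each age is 1 library.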

How the results depend on the processing

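No paired analysis was possible because each age has 1 library, and no replicate could be left out. No ratio past 1.5-fold between the ages that the text names crossed 1 under any alternative run. The carrier median of 1.33 was 1.21 in cells that pass the exclusion criteria, 1.19 scaled without mitochondrial, ribosomal protein and haemoglobin genes, 1.24 with the median ratio set to 1 and 1.20 as a mean over cells. The predicted P15 cells alone, an alternative chosen after seeing the data, gave 1.42. Calls at 1.5-fold against other P15 cells and against P6, higher then lower, were 37 and 78, and 409 and 337, with cells thinned to 3000 UMIs. They were 19 and 70, and 402 and 335, at a minimum of 200 UMIs, and 3123 and 4435, and 4475 and 5176, at 1 UMI. Against P6, 497 were higher without the 3 gene classes above. Against other P15 cells, 276 were lower with predicted names added, 239 lower with predicted cells alone and 117 higher against Capillary and Cap-Arterial cells. In cells with Y-linked and no Xist UMIs, also chosen after seeing the data, 94 were lower within P15, and 342 higher and 265 lower against P6. The Cap-Venous share was 36.9% with predicted names and 39.1% among predicted cells alone. Shares of P15 Cap-Venous cells with a UMI at 3000 UMIs were 89.0% for *Slc38a5*, 72.0% for *Apoe* and 92.4% for *Slco1a4*. They were 80.8% and 61.6% for *Slc38a5* and *Apoe* at 2000 UMIs, and unthinned 96.3% for *Slc38a5* and 97.8% for *Slco1a4*. Ratios within P15 that crossed 1 were *Rn7sk* (1.20 thinned, 1.04 in Y-only cells), *Isg15* (0.958 with predicted names, 0.810 in predicted cells alone), *Rgs5* (1.015 and 1.077 likewise), *Hmgb2* (1.28 without Proliferative and Primitive cells), and in predicted cells alone *Cgnl1* (0.871), *Pcna* (1.067) and *Ddx3y* (1.07). Against Capillary and Cap-Arterial cells they were *Hmgb2* (1.35), *Adm* (1.56), *Trp53i11* (2.44), *Pcna* (1.03) and *Cdkn1b* (1.28). The cause of these moves was not tested. The 134 cells limit the precision of any gene below about 100 UMIs.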

Other observations

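Immune and metabolic gene groups were also read in P15 Cap-Venous cells. Their counts are to be read against the shares over all genes counted. Against P6 these were 16.1% past 1.5-fold higher and 11.4% lower, and within P15 1.79% and 4.2%. Of 6 interferon-induced genes counted against P6, 4 were past 1.5-fold higher and none lower (median 1.86), and within P15 1 of 5 was higher (median 1.18). *Isg15*, a ubiquitin-like protein induced by interferon, stood at 135.0 CPM against 88.0 CPM in the other named P15 cells (1.54, 1.17 to 2.01). That ratio turned to 0.958 with predicted names added and to 0.810 in predicted cells alone. *Isg15* was 1.82-fold above P6 in Cap-Venous cells but 0.822 in the other named cells. Of 8 MHC class I genes 3 were past 1.5-fold higher than at P6 and none lower (median 1.34), while in the other named cells 3 of 10 were higher and 5 lower (median 0.845). Within P15 none of 7 was past 1.5-fold (median 0.880). Of 5 leukocyte adhesion and vein genes 2 were past 1.5-fold higher than at P6 (median 1.47), with *Vwf*, von Willebrand factor, at 178.3 against 105.6 CPM, and none of 6 within P15 (median 0.912). *Ackr1*, a chemokine receptor of venules, had no UMI in P15 Cap-Venous cells and 4 in P6 Cap-Venous cells.

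Of 10 glycolysis genes counted, 1 was past 1.5-fold higher and 1 lower than at P6 (median 1.28), with *Ldha*, lactate dehydrogenase, at 810.3 against 547.3 CPM, and none within P15 (median 0.972). Of 14 cholesterol synthesis genes 4 were counted between the ages, 2 of them past 1.5-fold lower (median 0.652), and none within P15. Lipid uptake genes had 3 of 6 past 1.5-fold higher than at P6 (median 1.30) and 1 of 6 within P15 (median 0.982). TGF and BMP genes had 3 of 12 past 1.5-fold higher than at P6 (median 1.21), with the inhibitor *Smad7* 3.74-fold higher, and 2 of 12 lower within P15 (median 0.833), where *Id1*, a BMP target, had a ratio of 0.662 (0.582 to 0.752). VEGF and angiopoietin receptors had none of 9 past 1.5-fold (median 1.14) between the ages and none of 8 within P15 (median 0.918). Of the 5 capillary annotation genes none was past 1.5-fold between the ages (median 1.15), and 1 was lower within P15 (median 0.927). Of the imprinted growth genes 1 was counted between the ages, *Grb10*, with a ratio of 0.999 (0.756 to 1.31). In the other named cells the medians between the ages were 1.1 for glycolysis, 0.643 for cholesterol synthesis and 1.19 for lipid uptake genes. They were 1.37 for TGF and BMP genes, 1.27 for VEGF and angiopoietin receptors and 1.46 for capillary annotation genes. Interferon-induced genes had 1.42 and leukocyte adhesion and vein genes 1.39 in those cells.

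Of 1235 P15 cells with no published name at hand, 483 were predicted to be Cap-Venous. Their levels were 1085 CPM for *Slco1a4*, 1210 CPM for *Slc16a1*, 901.7 CPM for *Slc38a5*, 752.3 CPM for *Apoe*, 10.8 CPM for *Plvap* and 5.99 CPM for *Slc1a4*. These cells come from the same P15 library and their names were predicted from expression, so they are no independent replicate.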
